A study of Mus musculus with 8 samples.

Results

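CD8 T cells that carried both PD1 and Tim3, sorted from tumours of the line B16-OVA, were compared between the donor genotypes labelled dKO and WT. The comparison took the 4 PD1+Tim3+ samples of the 8 in the series, 2 labelled dKO and 2 WT, and all 24951 named genes outside chromosome Y among the 24976 in the table. Of these, 13063 passed the filter on low counts and were tested. B16-OVA is a mouse melanoma line that expresses ovalbumin. Its cells were implanted under the skin of Rag2-/- mice, which lack T and B cells but keep other immune cells, and donor CD8+ T cells were transferred 10 days later. The labels give the dKO donors a Cd8Cre transgene, floxed alleles of Nr4a1 and Nr4a2 (NR4a1flox/flox NR4a2flox/flox) and the OT-I T cell receptor transgene (OT-ITg/+), which recognises ovalbumin. They give the other donors as WT and do not say whether those carried OT-I, so receptor specificity and genotype cannot be told apart. The tumour-infiltrating cells were collected 10 days after transfer through a CD3e+CD8+ gate, and each implanted mouse gave a sample. The sources used here give no ages. Every p-value thus compares 2 implanted mice a group, with the spread estimated over all 8 libraries of the series. These mice received the cells and are not the donors that carry the genotype. If the 2 mice of a group received cells of the same donors, they do not replicate the genotype. The labels do not say which PD1+Tim3+ and PD1+Tim3- libraries came from the same mouse, so the 8 may not be independent.

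NR4A1 (NUR77), NR4A2 (NURR1) and NR4A3 (NOR1) are nuclear receptors that act without a known natural hormone. T cell receptor signals induce them within hours, and in tumours, where antigen persists, they are known to restrain effector genes and to favour the state called exhaustion. Exhausted CD8 T cells carry the inhibitory receptors PD1 (Pdcd1) and Tim3 (Havcr2). Cells with PD1 alone include stem-like precursors that express the transcription factor TCF1 (Tcf7), and cells with both are the more terminally differentiated ones described here.

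The 4 libraries held 5256474 to 13418762 counts, and the 8 of the series 1944999 to 13418762. Levels below are in CPM, counts scaled to the size of each library after TMM scaling, and are given with WT before labelled dKO and replicate 1 before replicate 2. The markers that define CD8 T cells summed to 3312 to 3489 CPM in WT and 3345 to 3875 CPM in the libraries labelled dKO. Havcr2, the Tim3 gene, stood at 41.8 and 43.6 CPM in WT against 56.6 and 58.2 CPM in the libraries labelled dKO, and Pdcd1 at 49.3 and 50.4 CPM against 47.1 and 49.9 CPM. The marker sums of melanoma cells were 22.42 to 22.96 CPM in WT and 20.85 to 24.02 CPM in labelled dKO, with 0 of 4 tested markers called, and those of macrophages 18.0 to 19.5 CPM and 17.1 to 17.9 CPM, with 0 of 3 called. Erythroid and platelet markers summed to 7.78 to 35.9 CPM in WT and 36.0 to 110.8 CPM in labelled dKO, with 0 of 5 called. The sexes of the donors are not given, and sex-linked transcripts differed between the groups. The Y-linked gene Ddx3y stood at 19.7 and 18.9 CPM in WT against 56.8 and 58.0 CPM in labelled dKO, while Xist, transcribed from the inactive X chromosome, stood at 909.7 and 922 CPM against 679.5 and 671 CPM (adjusted p 0.147). Ddx3y and Xist were both counted in each of the 4 libraries. Whether the transferred cells of a group were pooled from several donors was not tested. Nor was the part of sex-linked transcripts in the results below.

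The targeted genes were read first, since they check the labels. Nr4a1, on chromosome 15 from 101254269 to 101274795 (GRCm38), stood at 803 and 789 CPM in WT against 1194 and 1175 CPM in the libraries labelled dKO. Both labelled dKO libraries lay above both WT libraries, with a log2 fold change of 0.57 ± 0.13 (SE) and an adjusted p of 0.0944. In 3 of 19 alternatives, limma-voom, no low-count filter and robust empirical Bayes, Nr4a1 was called higher. Nr4a2 stood at 1034 and 979 CPM against 954 and 984 CPM, and its groups overlapped (adjusted p 0.921). Nr4a3, which was not targeted, stood at 358 and 377 CPM against 382 and 403 CPM. Neither targeted gene was lower, which goes against the label, and the sources used here do not say which exons are floxed, so a count over the whole gene may include exons that remain. Every direction below is therefore between the libraries labelled dKO and WT. No gene called in the comparison lay within 10 Mb of either target: 0 of 105 tested genes around Nr4a1 and 0 of 46 around Nr4a2 were called. Over all tested genes the share called was 0.597%, so 0 in windows of this size is no result about these neighbourhoods. The nearest were Lgals1, 22.3 Mb from Nr4a1, and Itgav, 26.6 Mb from Nr4a2.

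Of the 13063 genes 78 were called at a Benjamini-Hochberg adjusted p under 0.05 in the quasi-likelihood test of edgeR, 0.597% of those tested. Higher in the libraries labelled dKO were 30 genes (0.23%), and lower were 48 (0.367%). Over all tested genes 6657 fold changes were positive and 6406 negative. These shares are the background for the counts in the lists below. The lower genes include receptors for lymph node homing and transcription factors of memory-type T cells. The higher genes include interferon-inducible IFITM genes, the receptors Gpr55 and Gpr15, the ligands Ccl1, Cd40lg and Tnf, and the S100 genes S100a4 and S100a10. A change of more than 2-fold was seen in 28 of the 78, 13 higher and 15 lower, and the smallest absolute log2 fold change was 0.57. In all 78 the 2 libraries labelled dKO lay beyond both WT libraries, an arrangement that 41.4% of tested genes had. Called genes were more abundant than most, with a median of 48.4 CPM over the 4 libraries against 19.0 CPM for all tested genes.

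**Figure D1:**
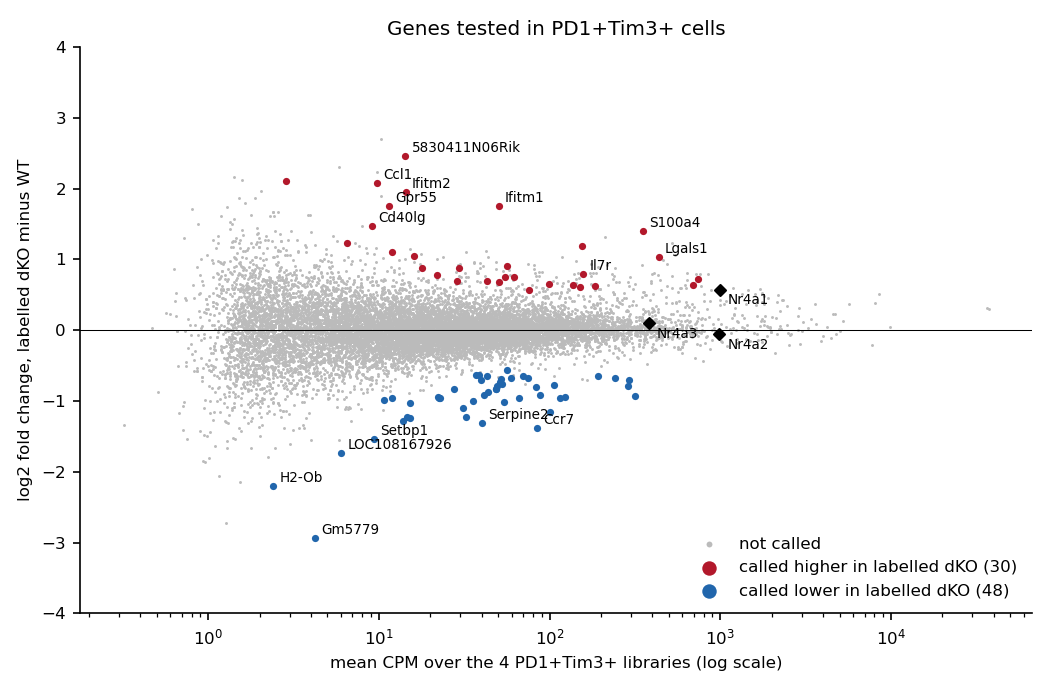
Each point is a tested gene, with its mean level over the 4 PD1+Tim3+ libraries in CPM on a log scale across and its log2 fold change, labelled dKO minus WT, up the side. The 30 genes called higher are red, the 48 called lower are blue, and the black diamonds are the NR4A genes, with Nr4a1 at 0.57.

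The number of calls depends on which mouse is in the fit. Leaving out WT PD1+Tim3+ replicate 1 gave 8 and replicate 2 gave 4, where a lone WT library is assumed to vary like the other groups. Leaving out labelled dKO PD1+Tim3+ replicate 1 gave 409, of which 337 were higher, and replicate 2 gave 49. Leaving out a PD1+Tim3- library of the WT gave 74 or 77, and leaving out one labelled dKO gave 35 or 36. The direction of all 78 genes was the same in each of the 19 alternatives that gave a value. That was all 19 for 75 genes and 18 for Gm5779, H2-Ob and LOC106557447. The groups did not overlap in any of the 78, so dropping or rescaling libraries could hardly reverse a sign. The shared direction is therefore no test of the calls. Ccr7, Ifitm1 and Ifitm2 were among the genes called in every alternative. Where another gene is described below, its call was lost in at least 1 alternative, most often when a WT PD1+Tim3+ library was left out.

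Of the receptors that bring T cells to lymph nodes or hold them there, Ccr7 and Cxcr4 were lower. Ccr7, the receptor for the chemokines that guide T cells into lymph nodes, stood at 124 and 119.8 CPM in WT against 48.8 and 44.3 CPM in the libraries labelled dKO. Every labelled dKO library was below both WT libraries, by 2.61-fold on average (-1.39 ± 0.11 log2, SE), with an adjusted p of 2.86e-04. The 2 libraries of each genotype were close together and the groups were far apart. Cxcr4, the receptor for CXCL12, stood at 156 and 149.7 CPM against 83.2 and 74.1 CPM (-0.96 ± 0.12, adjusted p 0.00791). The order of the groups was the same, with a smaller gap. Of the 7 tested genes described here from the list of lymphoid homing and egress receptors 2 were lower and 0 higher, and 6 of 7 fold changes were negative, with a median log2 of -0.21 against 0.00 for all tested genes. That median was -0.14 without WT replicate 1 and -0.34 without WT replicate 2. Cxcr5, the follicle homing receptor, stood at 7.14 and 4.93 CPM against 1.86 and 2.03 CPM and did not pass (adjusted p 0.0870). S1pr1, the receptor that T cells use to leave tissue, stood at 37.4 and 38.1 CPM against 47.3 and 47.7 CPM, the other way, and did not pass (adjusted p 0.231). Klf2, which drives S1pr1 transcription, stood at 46.9 and 42.4 CPM against 41.1 and 36.0 CPM (adjusted p 0.513). Of 8 inflammatory chemokine receptors 0 were called. As these are bulk libraries, fewer cells with a transcript and less of it per cell cannot be told apart, for these genes and for all below.

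Transcription factors and receptors of stem-like and memory cells moved in both directions. Of 20 listed genes 6 were lower, Ccr7, Nsg2, Myb, Eomes, Samd3 and Itm2a, and 1 was higher, Il7r, with 13 not called and a median log2 of -0.19. Myb, a transcription factor that sustains stem-like CD8 T cells, stood at 86.5 and 87.4 CPM in WT against 43.2 and 46.5 CPM in labelled dKO. The labelled dKO libraries held about 1.94-fold less (-0.95 ± 0.11, adjusted p 0.00239). Eomes, a T-box factor of memory and exhausted cells, stood at 57.6 and 55.8 CPM against 35.2 and 26.8 CPM (-0.87 ± 0.14, adjusted p 0.0183), and its call was lost in 5 of 19 alternatives. Il7r, the receptor for the survival cytokine IL-7, went the other way, from 124 and 108 CPM to 193 and 207 CPM (0.80 ± 0.12, adjusted p 0.0136). Both labelled dKO libraries were above both WT libraries. Tcf7, the TCF1 gene named in the title of the series, stood at 206 and 203 CPM against 171 and 176 CPM and did not pass (adjusted p 0.440). The other stem-like factors Lef1, Bach2 and Foxo1 had adjusted p-values of 0.684, 0.282 and 0.721, and Id3, an inhibitor of E-protein factors, stood at 10.9 and 12.1 CPM against 16.6 and 17.9 CPM (adjusted p 0.134). Of the smaller called members, Itm2a, a membrane protein gene of activated T cells, stood at 128 and 139 CPM against 76.1 and 80.2 CPM, Samd3 at 61.5 and 62.3 CPM against 37.2 and 32.5 CPM, and Nsg2, a vesicle protein gene best known from neurons, at 29.6 and 30.4 CPM against 14.3 and 16.4 CPM. In each of the 3 the WT libraries were the higher ones.

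Among factors of effector and exhausted cells 1 of 22 tested was lower and 0 higher, with a median log2 of -0.20. The called gene was Irf8, an interferon regulatory factor that effector CD8 T cells and myeloid cells use, at 155 and 167 CPM in WT against 82.7 and 85.5 CPM in labelled dKO (-0.94 ± 0.10, adjusted p 0.00239). The labelled dKO libraries lay 1.92-fold below WT, and the call was lost in 1 of the 19 alternatives, the fit without WT PD1+Tim3+ replicate 2 (adjusted p 0.0754). Tox, a factor that drives exhaustion, stood at 22.6 and 25.6 CPM against 19.7 and 17.7 CPM (adjusted p 0.326), and Tbx21, the gene of the effector factor T-bet, at 117 and 119.5 CPM against 127 and 116 CPM (adjusted p 0.936). Neither passed. Of 19 tested checkpoint receptor genes 0 were called, and 9 had an unadjusted p under 0.05, 3 higher and 6 lower. By the same unadjusted threshold 7.07% of all tested genes were higher and 4.91% lower. Lag3 stood at 294 and 269.8 CPM against 229.7 and 205 CPM (adjusted p 0.221), Tigit at 179.9 and 194 CPM against 152 and 123 CPM (adjusted p 0.180), and Ctla4 at 472 and 442 CPM against 392 and 365 CPM (adjusted p 0.351). All 3 had both labelled dKO libraries below both WT libraries, as did 2707 of the 13063 tested genes, and none passed. Over the 19 checkpoint receptor genes 7 fold changes were positive and 12 negative. The sort itself used PD1 and Tim3, so their genes are no free comparison here.

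**Figure D2:**
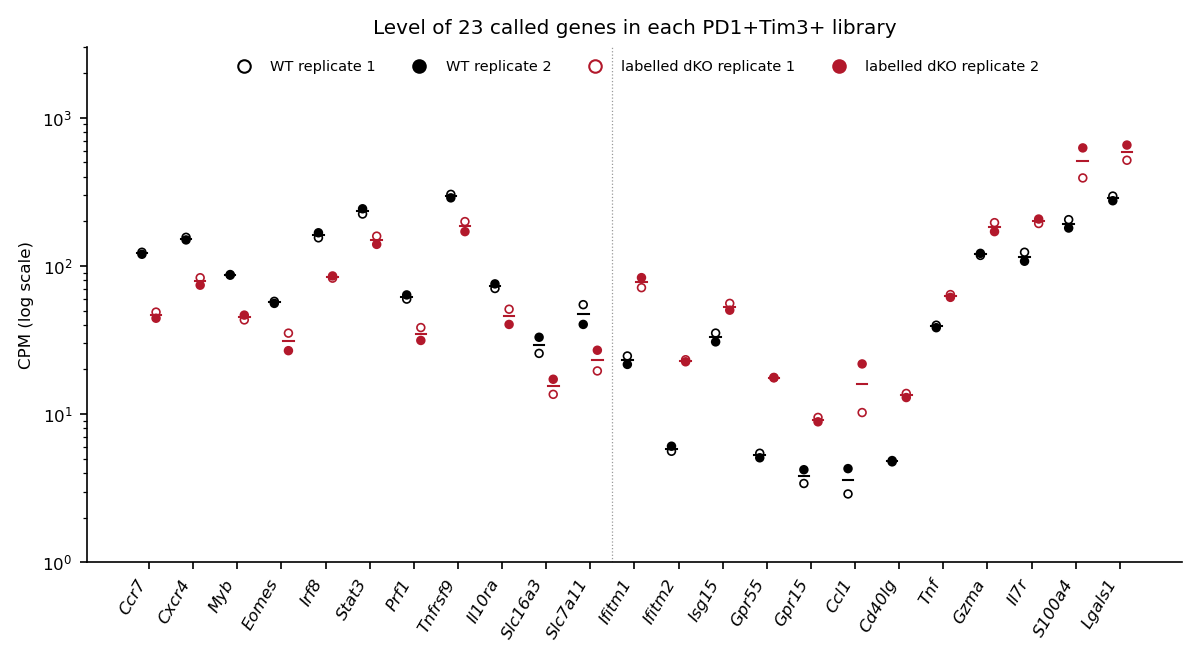
Each column is a called gene, with its level in CPM on a log scale. Open and filled circles are replicates 1 and 2, black for WT and red for labelled dKO, and the short lines are means of 2 libraries. The 11 genes left of the dotted line were lower in labelled dKO and the 12 to the right were higher, as for Ccr7, at 124 and 119.8 CPM in WT against 48.8 and 44.3 CPM in labelled dKO.

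The clearest rises were in the IFITM genes, which encode small membrane proteins that interferons induce and that block virus entry. Ifitm1 stood at 24.7 and 21.6 CPM in WT against 71.3 and 83.3 CPM in the libraries labelled dKO. It shared with Ccr7 the lowest adjusted p among the 78, 2.86e-04, at 1.75 ± 0.13 log2, or 3.37-fold. Ifitm2 stood at 5.61 and 6.07 CPM against 23.3 and 22.5 CPM, 3.87-fold higher (1.95 ± 0.17, adjusted p 5.93e-04). The 2 libraries of each genotype agreed closely for both genes, and the groups did not approach each other. Of the 4 tested members 2 were called, and Ifitm3, which lies next to them, stood at 7.31 and 5.36 CPM against 8.38 and 9.79 CPM and did not pass (adjusted p 0.423). IFITM genes are alike in sequence, and the sources used here do not say how reads that match more than 1 of them were treated.

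Ifitm2 and Ifitm1 start 12384 bases apart on chromosome 7, at 140954837 and 140967221 (GRCm38). Another gene of that stretch, 5830411N06Rik, starts at 140247284, 707553 bases before Ifitm2. It stood at 4.08 and 4.57 CPM in WT against 22.3 and 26.2 CPM in labelled dKO, the steepest rise among the 78 at 5.50-fold (2.46 ± 0.24, adjusted p 9.22e-04). Of the 9 tested genes that start between 5830411N06Rik and Ifitm2 0 were called, against 0.597% of all tested genes, and their lowest adjusted p was 0.599. Among the called genes with coordinates, the other starts within 1 Mb of each other were those of H2-Ob, Tnf and 2410017I17Rik on chromosome 17, of which Tnf was higher and the others lower.

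Interferon-stimulated genes as a list were centred near 0, like all tested genes. Of 34 listed type I interferon genes 1 was higher and 0 lower, with 17 positive and 17 negative fold changes and a median log2 of 0.01. The called gene was Isg15, which encodes a ubiquitin-like protein, at 35.2 and 30.7 CPM in WT against 55.9 and 50.2 CPM in labelled dKO (0.70 ± 0.13, adjusted p 0.0360). Its call was lost in 7 of 19 alternatives. Of 15 GBP and IRG GTPase genes, which interferon gamma induces, 0 were called, with a median log2 of -0.07, and of 19 MHC class I presentation genes 0 were called, with a median of -0.08.

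Promoters of the genes that rose were read for 4 motifs in RefSeq windows from 250 bases before to 50 bases after the start site (GRCm38.p6). A window was found for 23 of the 30 higher and 29 of the 48 lower genes, and for 9714 tested genes. The core of the interferon-stimulated response element, GAAANNGAA on either strand, was chosen after the called genes were seen. Those include the interferon-inducible Ifitm2 and Isg15, so the share among the higher genes is a description and no test. Some genes have more than 1 window, and the counts are of genes with a match in at least 1. The core was found for 7 of the 23 higher genes (30.4%), 3 of the 29 lower genes (10.3%), 8.94% of tested genes with a window and 9.76% of all 27025 genes with a window. The 7 genes were 5830411N06Rik, Ccl1, Gpr15, Gpr55, Gzma, Ifitm2 and Isg15. NBRE, the site that NR4A monomers bind (AAAGGTCA), was in no window of the 23 higher and 29 lower genes and in 1.26% of tested genes with a window, and GTAAACAA, a FOXO site, in 0, 0 and 1.07%. AP-1 (TGANTCA) was in 2 of the higher genes, Gpr15 and Lmna, in 1 of the lower, Tnfrsf9, and in 6.18% of tested genes. All motifs were searched on both strands, and in the windows of called genes matches of different motifs did not overlap. A match describes letters in these windows and is no evidence of binding, and its absence says nothing of sites elsewhere. The windows of 5 higher genes are printed 5′ to 3′ on the strand of the gene, because 4 of them hold the GAAANNGAA core in either orientation, in capitals, and the fifth, that of Ifitm1, does not.
Ifitm2 (chr7:140955912-140956211, reverse strand): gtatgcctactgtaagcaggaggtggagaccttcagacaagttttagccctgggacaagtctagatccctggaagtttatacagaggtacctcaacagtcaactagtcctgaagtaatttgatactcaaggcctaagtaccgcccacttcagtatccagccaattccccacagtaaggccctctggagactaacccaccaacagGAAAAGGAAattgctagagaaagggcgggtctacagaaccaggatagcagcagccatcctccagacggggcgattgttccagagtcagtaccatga
Ifitm1 (chr7:140967826-140968125, forward strand): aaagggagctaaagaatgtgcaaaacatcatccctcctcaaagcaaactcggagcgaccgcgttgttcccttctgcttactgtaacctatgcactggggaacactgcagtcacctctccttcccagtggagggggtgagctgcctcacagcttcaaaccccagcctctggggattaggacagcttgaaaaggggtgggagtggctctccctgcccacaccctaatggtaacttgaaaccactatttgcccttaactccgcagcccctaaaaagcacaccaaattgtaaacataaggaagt
5830411N06Rik (chr7:140247131-140247430, forward strand): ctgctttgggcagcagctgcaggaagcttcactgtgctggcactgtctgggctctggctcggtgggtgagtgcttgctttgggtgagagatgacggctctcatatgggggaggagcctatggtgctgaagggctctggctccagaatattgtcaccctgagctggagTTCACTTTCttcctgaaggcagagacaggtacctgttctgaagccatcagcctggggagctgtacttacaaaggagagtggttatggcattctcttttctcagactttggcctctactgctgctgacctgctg
Isg15 (chr4:156200769-156201068, reverse strand): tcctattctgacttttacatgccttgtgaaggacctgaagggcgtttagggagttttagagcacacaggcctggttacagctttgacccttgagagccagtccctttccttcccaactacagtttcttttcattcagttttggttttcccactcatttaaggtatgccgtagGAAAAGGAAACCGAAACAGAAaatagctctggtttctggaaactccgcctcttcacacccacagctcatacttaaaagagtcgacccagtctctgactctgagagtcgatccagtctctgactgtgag
Gpr55 (chr1:85961006-85961305, reverse strand): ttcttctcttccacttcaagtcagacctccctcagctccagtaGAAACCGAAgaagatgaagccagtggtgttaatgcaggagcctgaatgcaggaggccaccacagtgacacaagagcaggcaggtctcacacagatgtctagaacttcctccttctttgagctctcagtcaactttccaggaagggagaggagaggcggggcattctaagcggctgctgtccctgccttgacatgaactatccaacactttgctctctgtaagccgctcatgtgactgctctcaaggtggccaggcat
Counting the base before the start site as -1, the core began at -46 in Ifitm2, at -83 in 5830411N06Rik and at -207 in Gpr55. Isg15 held 3 cores that overlap, at -78, -72 and -66. The window of Ifitm1 held none of the 4 motifs.

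The receptor genes Gpr55 and Gpr15 and the ligand genes Ccl1, Cd40lg and Tnf were higher. Gpr55, a receptor for lysophosphatidylinositol, stood at 5.44 and 5.07 CPM in WT against 17.7 and 17.6 CPM in labelled dKO, 3.38-fold higher (1.76 ± 0.18, adjusted p 0.00109). The replicates differed by less than 1 CPM in each genotype. Of 21 tested lipid and adenosine receptor genes it was the 1 called, and 15 of the 21 fold changes were negative. Gpr15, a receptor that directs T cells to the colon, stood at 3.40 and 4.21 CPM against 9.49 and 8.87 CPM (1.23 ± 0.24, adjusted p 0.0454). Ccl1, a chemokine that binds CCR8, stood at 2.89 and 4.29 CPM against 10.2 and 21.8 CPM (2.08 ± 0.36, adjusted p 0.0306). Its labelled dKO libraries differed from each other more than those of the other ligands, and its call was lost in 7 of 19 alternatives. Of 7 tested chemokine genes 1 was called, with Ccl5 at 1644 and 1491 CPM against 1582 and 2473 CPM (adjusted p 0.501) and Xcl1 at 400.4 and 370.1 CPM against 272 and 623 CPM (adjusted p 0.854), both spread widely between the labelled dKO replicates.

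Of 17 tested cytokine and TNF-family ligand genes 2 were higher, 0 lower, and 14 had positive fold changes, with a median log2 of 0.13. Cd40lg, the ligand of CD40 that is best known from helper T cells, stood at 4.76 and 4.86 CPM in WT against 13.8 and 12.9 CPM in labelled dKO (1.47 ± 0.20, adjusted p 0.00943). Cd4 itself was listed at 0 in all 4 libraries, and the sum of the CD4 and regulatory T cell markers, which include Cd40lg and Il2ra, was 153 to 159 CPM in WT and 187 to 189 CPM in labelled dKO. Tnf stood at 39.8 and 38.3 CPM against 64.0 and 61.3 CPM, with no overlap (0.69 ± 0.11, adjusted p 0.0208). Ifng, the interferon gamma gene, stood at 537 and 539 CPM against 626 and 616 CPM, with both labelled dKO libraries higher, and did not pass (adjusted p 0.491). Il2 stood at 0.850 and 1.28 CPM against 2.61 and 4.43 CPM, a level at which its log2 fold change of 1.61 ± 0.48 did not pass (adjusted p 0.204).

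In the lists of cytokine receptors and costimulatory receptors 3 genes were called, Tnfrsf9 and Il10ra lower and Il7r higher. Tnfrsf9 (4-1BB), a costimulatory receptor of activated T cells, stood at 304 and 288 CPM in WT against 199 and 170.3 CPM in labelled dKO (-0.68 ± 0.12, adjusted p 0.0303), and was the 1 gene called of 17 in its list. Il10ra, a chain of the IL-10 receptor, stood at 70.4 and 75.6 CPM against 51.0 and 40.3 CPM (-0.68 ± 0.13, adjusted p 0.0388). Stat3, the signal transducer used by IL-10 and IL-6 family receptors, stood at 224 and 243 CPM against 159 and 139.7 CPM (-0.65 ± 0.11, adjusted p 0.0303). For these 3 the groups did not overlap, and each call was lost in 7 or 8 of 19 alternatives. Of 25 cytokine receptor genes 1 was lower and 1 higher, the latter Il7r, and of 14 STAT and SOCS genes 1 was lower, Stat3. Itgav, the integrin alpha V chain, was the 1 of 17 integrin and adhesion genes called, at 50.5 and 48.0 CPM against 31.6 and 28.6 CPM (-0.70 ± 0.12, adjusted p 0.0302). Itgb1, the integrin beta 1 chain, stood at 538 and 522 CPM against 777 and 1059 CPM, just outside the threshold at an adjusted p of 0.0517.

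The called granule genes, Prf1 and Gzma, changed in opposite directions. Prf1, which encodes the pore-forming protein perforin, stood at 59.7 and 63.7 CPM in WT against 38.4 and 31.4 CPM in labelled dKO (-0.83 ± 0.12, adjusted p 0.0132). Gzma, the granzyme A gene, stood at 118 and 122 CPM against 196 and 170.3 CPM, 1.53-fold higher (0.61 ± 0.11, adjusted p 0.0357). The labelled dKO libraries were below WT for perforin and above WT for granzyme A. Gzmb, the granzyme B gene, stood at 1013 and 884 CPM against 853 and 726 CPM and did not pass (adjusted p 0.451). Of the 14 tested granule genes 1 was higher and 1 lower, with 7 positive and 7 negative fold changes and a median log2 of -0.04. Serpina3g, an inhibitor of serine and cysteine proteases, fell from 40.6 and 30.6 CPM to 18.8 and 20.5 CPM (-0.83 ± 0.16), with a call that was lost in 14 of 19 alternatives (adjusted p 0.0454). Ctse, the aspartic protease cathepsin E, stood at 58.1 and 50.1 CPM against 31.1 and 25.7 CPM (-0.92 ± 0.16, adjusted p 0.0311). The NK cell markers, of which 1 of 5 tested, Eomes, was called, summed to 86.1 to 90.1 CPM in WT and 50.1 to 59.4 CPM in labelled dKO. Eomes, also a factor of memory and exhausted cells, made up 57.6 and 55.8 CPM of that sum in WT. In labelled dKO it made up 35.2 and 26.8 CPM. The part of these markers in the granule results was not tested.

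Several genes in the list of galectins, S100 proteins and annexins rose. S100a4, a calcium-binding protein of motile effector cells, stood at 205 and 180.1 CPM in WT against 392 and 626 CPM in labelled dKO (1.40 ± 0.21, adjusted p 0.0135). Lgals1, which encodes galectin-1, stood at 296 and 275 CPM against 516 and 654 CPM (1.04 ± 0.14, adjusted p 0.0106). Both labelled dKO libraries were above WT, replicate 2 the further. Crip1, a LIM-domain protein gene, stood at 91.8 and 96.1 CPM against 158 and 271 CPM (1.19 ± 0.23, adjusted p 0.0451), and S100a10, the partner of annexin A2, at 541 and 538 CPM against 830.2 and 855 CPM (0.64 ± 0.12, adjusted p 0.0407). Of the 21 tested galectin, S100 and annexin genes with their neighbours in function 4 were higher and 0 lower, against 0.23% and 0.367% of all tested genes. Positive fold changes were seen in 20, against 6657 of all 13063, with a median log2 of 0.39 against 0.00 for all tested genes. S100a6, another member of the S100 family, stood at 309 and 314 CPM against 524 and 944 CPM and did not pass (adjusted p 0.0687), while annexin genes such as Anxa2, at 282 and 289 CPM against 318 and 276 CPM, had no separation.

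Many of these transcripts are short, and short transcripts as a class stood higher in the libraries labelled dKO. Counts in transcripts under 1000 bases made up 18.7% and 18.5% of the WT libraries and 19.7% and 21.7% of those labelled dKO. Over 230 tested genes under 500 bases the median log2 fold change was 0.38, with 0.09 in replicate 1 and 0.49 in replicate 2 against the WT mean, and in the 3 bins from 1500 bases up it lay between -0.03 and 0.01. All 13 called genes under 1000 bases were higher, and the 50 called genes of 1000 bases or more were 14 higher and 36 lower, with no length for 15. With offsets that remove the trend in length, chosen after the data were seen, S100a4 kept a log2 fold change of 1.06 and Lgals1 of 0.87, both called. Of the 78 genes 67 remained called there, Ifitm1 and Ifitm2 among them, and 75 were called in all, 26 higher and 49 lower. Those that did not remain included Crip1, S100a10, Isg15, Gas5 (a host gene of small nucleolar RNAs), Gzma, Supt4a and Cklf.

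**Figure D3:**
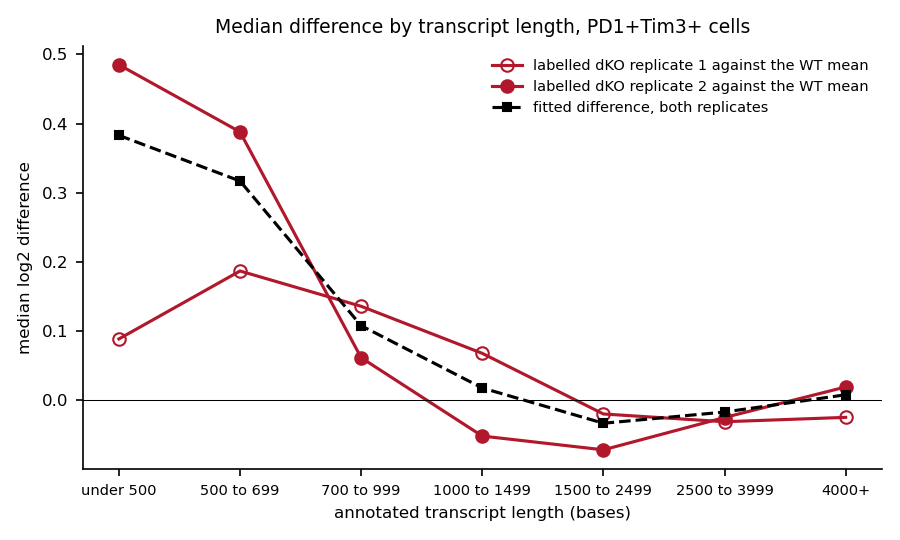
Tested genes are binned by annotated transcript length across, and the median log2 difference from WT is drawn up the side. Open and filled red circles are labelled dKO replicates 1 and 2 against the WT mean, and black squares are the fitted difference. Under 500 bases the medians were 0.09, 0.49 and 0.38, and all 3 lines lie near 0 from 1500 bases up.

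A like split between replicates was seen in cytosolic ribosomal protein genes and nuclear genes of the respiratory chain, none of which was among the 78 called genes. The 85 tested cytosolic ribosomal protein genes, nearly all short, had a median log2 of 0.42, with 0.15 in replicate 1 and 0.70 in replicate 2, and 78 of 85 positive. The 74 nuclear genes of the respiratory chain had 0.49, with 0.19 and 0.68. With an unadjusted p under 0.05, 42 and 41 of them were higher and 0 lower, against 7.07% and 4.91% of all tested genes. In PD1+Tim3- cells, by contrast, the medians of the ribosomal and respiratory lists were -0.37 and -0.40. The 78 mitochondrial ribosomal protein genes, also with 0 called, had a median of 0.08, with 0.16 in replicate 1 and 0.05 in replicate 2, the other order. The 40 genes of mitosis and G2/M had a median of 0.40, which was alike in both replicates at 0.36 and 0.37, and 36 of 40 were positive. Its 1 called gene was Cks2, a subunit that binds cyclin-dependent kinases, at 46.9 and 45.1 CPM in WT against 75.6 and 78.5 CPM in labelled dKO (0.75 ± 0.11, adjusted p 0.0132). Of 34 DNA replication genes 0 were called, with a median of 0.15.

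Slc7a11 and Slc16a3, which carry nutrients and metabolites across the membrane, were lower. Slc7a11, the cystine and glutamate exchanger, stood at 54.8 and 40.3 CPM in WT against 19.6 and 27.0 CPM in labelled dKO (-1.01 ± 0.18, adjusted p 0.0309). It was the 1 gene called of 21 in the list of amino acid supply and ATF4 targets. Slc16a3, the lactate exporter MCT4, stood at 25.7 and 33.0 CPM against 13.6 and 17.2 CPM (-0.95 ± 0.17, adjusted p 0.0318). In both genes the replicates of a genotype differed visibly and the groups still did not overlap. Of 19 glycolysis genes Slc16a3 was the 1 called, and 17 had negative fold changes, with a median log2 of -0.25. The labelled dKO medians were -0.20 and -0.34 in the 2 replicates. Pkm, the pyruvate kinase gene, stood at 799.5 and 812 CPM against 624 and 602 CPM, short of the threshold (adjusted p 0.228), as was Hk2, a hexokinase gene, at 29.2 and 29.1 CPM against 40.4 and 35.8 CPM (adjusted p 0.267). Outside both lists, Ephx1, an epoxide hydrolase gene, fell from 69.2 and 62.9 CPM to 44.1 and 33.6 CPM (adjusted p 0.0382), and Car5b, a mitochondrial carbonic anhydrase gene, rose from 20.6 and 23.3 CPM to 35.4 and 36.2 CPM (adjusted p 0.0347). Of 19 cholesterol synthesis genes 0 were called, with a median of 0.01.

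Called genes of stress and TGF-beta signals, which were not tested as a list, included 4 that were higher and 3 that were lower. They were grouped after the calls were seen, with no count of uncalled genes of this kind, so these numbers are no share. Klf10, a transcription factor that TGF-beta and T cell receptor signals induce, stood at 40.3 and 41.5 CPM in WT against 70.0 and 67.6 CPM in labelled dKO (0.75 ± 0.11, adjusted p 0.0132). Of 28 early genes of T cell receptor signals it was the 1 called, with 19 positive and a median log2 of 0.17. Smad7, the inhibitor of TGF-beta receptors, stood at 156 and 135 CPM against 223 and 224 CPM (0.62 ± 0.11, adjusted p 0.0357). Both genes had closely matched labelled dKO libraries above WT. Gadd45b, a stress-induced regulator of kinases, stood at 559.9 and 549.9 CPM against 942 and 894 CPM (0.73 ± 0.11, adjusted p 0.0169), and Atf3, a stress-induced factor, at 38.8 and 39.5 CPM against 61.6 and 85.3 CPM (0.91 ± 0.17, adjusted p 0.0458). Lower were Dusp10, a phosphatase of p38 and JNK kinases, at 65.3 and 62.6 CPM against 42.3 and 37.3 CPM (adjusted p 0.0208), and Hipk2, a nuclear kinase, at 52.0 and 52.5 CPM against 33.7 and 33.1 CPM (adjusted p 0.0225). Tsc22d3 (GILZ), which glucocorticoids induce, stood at 92.3 and 78.9 CPM against 49.7 and 59.7 CPM (adjusted p 0.0451), with a call lost in 13 of 19 alternatives.

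Several of the largest falls were in genes outside these lists. Serpine2, a secreted protease inhibitor, stood at 55.1 and 59.2 CPM in WT against 23.4 and 22.5 CPM in labelled dKO (-1.32 ± 0.13, adjusted p 0.00108). Setbp1, which encodes a DNA-binding protein, stood at 13.1 and 14.7 CPM against 4.84 and 4.80 CPM (-1.54 ± 0.21, adjusted p 0.00943). Each was below WT in both labelled dKO libraries by more than 2-fold. Ift80, a subunit of the intraflagellar transport complex, stood at 18.9 and 21.8 CPM against 8.94 and 8.68 CPM (-1.22 ± 0.18, adjusted p 0.0132). H2-Ob, a chain of the MHC class II regulator H2-O, stood at 4.25 and 3.71 CPM against 0.745 and 0.924 CPM (-2.20 ± 0.41, adjusted p 0.0407), on 25 and 52 counts in WT and 4 and 5 in labelled dKO. The steepest fall, in the gene model Gm5779, rested on 51 and 88 counts in WT and 1 and 9 in labelled dKO (-2.94 ± 0.50, adjusted p 0.0302). Gene models with Gm or LOC numbers made up 16 of the 78 called genes, 3 higher and 13 lower, out of 1311 tested. Of the 11752 other symbols tested, 27 were called higher and 35 lower.

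Counts of some called genes may belong to neighbours, since the sources used here do not say whether counting used the strand. Of the 68 called genes with coordinates, 21 overlapped another gene of the table, 13 of them a gene on the other strand. The share among all tested genes is not given here, so the 21 are not read as a trait of called genes. Tg, the thyroglobulin gene, which was called lower at 19.7 and 19.6 CPM in WT against 9.31 and 6.83 CPM in labelled dKO, contains Sla on its other strand, at a mean of 386 CPM. Sla itself had a log2 fold change of -0.10 and was not called (adjusted p 0.825). Tmem176b, called higher at 7.31 and 7.71 CPM against 15.8 and 16.8 CPM, overlaps Tmem176a, at 1.08 log2 and an adjusted p of 0.129. Gpr15 overlaps Cpox, at a mean of 27.6 CPM and -0.14 log2 (adjusted p 0.757).

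**Figure D4:**
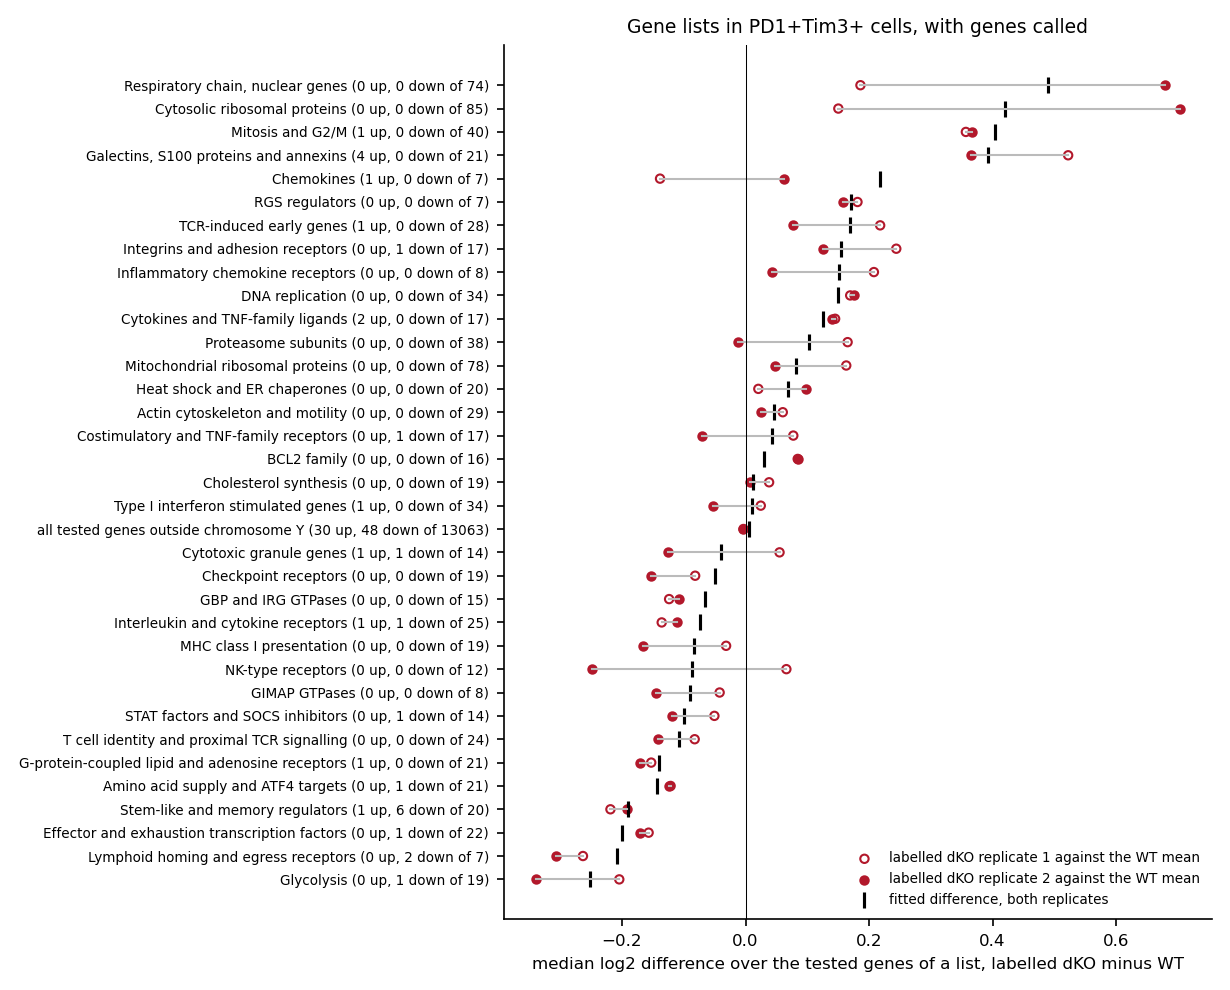
Each line is a gene list with at least 7 tested genes, ordered by the median log2 difference, labelled dKO minus WT, and named with the numbers of genes called up and down. Open and filled red circles are the 2 labelled dKO replicates against the WT mean, and the black tick is the fitted difference. The glycolysis list is lowest at -0.25, and the respiratory and ribosomal lists are highest, at 0.49 and 0.42, with replicates far apart.

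The same genotypes were compared in PD1+Tim3- cells, with their own WT libraries, and the labels do not say which libraries of the 2 populations came from 1 mouse. Of the 78 genes 64 had the same direction there (82.1%, against 46.7% of all tested genes), and 3 were called there, Setbp1, Serpine2 and Gdpd3, of 6 called in that population outside chromosome Y (0.0459% of those tested). Serpine2 had a log2 fold change of -2.08 ± 0.26 in PD1+Tim3- cells against -1.32 ± 0.13 in PD1+Tim3+ cells, and Setbp1 of -2.12 ± 0.27 against -1.54 ± 0.21. Gdpd3, a lipid-cleaving enzyme gene, stood at 30.6 and 27.7 CPM in WT against 13.8 and 16.4 CPM in labelled dKO PD1+Tim3+ cells, and had -1.62 ± 0.18 against -0.94 ± 0.16. These 3 were lower in both populations. Ccr7 stood at 134 and 141 CPM in WT against 93.7 and 85.5 CPM in labelled dKO PD1+Tim3- cells (-0.61 ± 0.11, adjusted p 0.109). The IFITM genes were weakly expressed there, with Ifitm1 at 4.41 and 5.18 CPM against 8.32 and 8.92 CPM (0.84 ± 0.24, adjusted p 0.424). S100a4, Lgals1, Crip1, Gzma and Ccl1 had negative fold changes there and positive ones in PD1+Tim3+ cells, at -0.39 ± 0.22 against 1.40 ± 0.21 for S100a4 and -0.45 ± 0.14 against 0.61 ± 0.11 for Gzma.

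The difference between the populations was tested as an interaction, and edgeR called 0 genes, with a lowest adjusted p of 0.200 and 1315 genes (10.1%) at an unadjusted p under 0.05, of which 39 were among the 78. For Lgals1 the interaction was 1.39 ± 0.20 (unadjusted p 2.77e-05, adjusted p 0.200). DESeq2, added after the data were seen, called 95 interactions, limma-voom 0, and the fit without PD1+Tim3+ labelled dKO replicate 1 called 323. By the edgeR test no genotype difference was called as particular to PD1+Tim3+ cells.

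**Figure D5:**
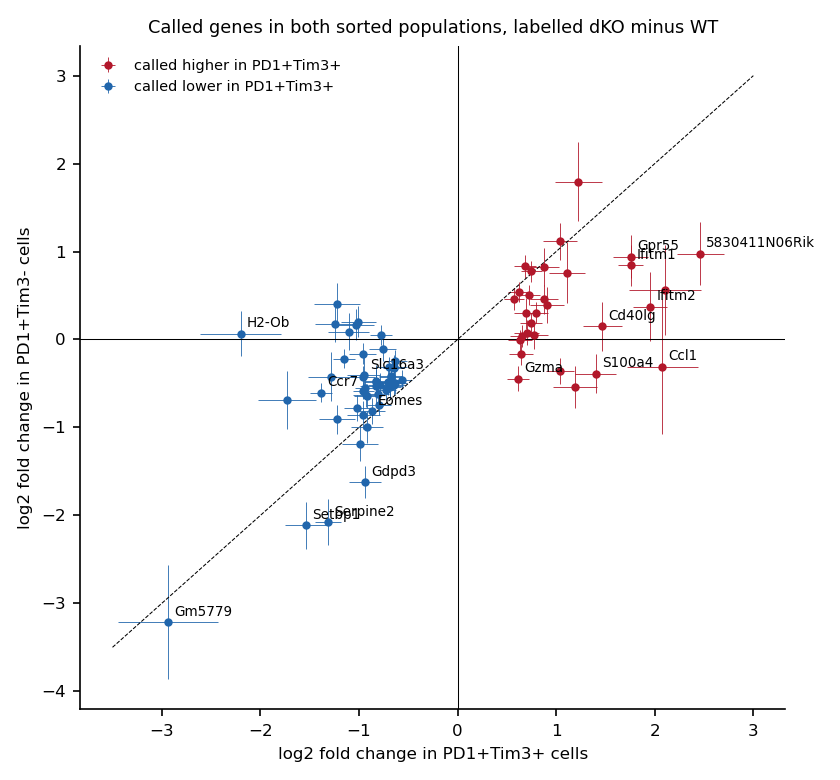
Each point is one of the 78 genes called in PD1+Tim3+ cells, with its log2 fold change, labelled dKO minus WT, in that population across and in PD1+Tim3- cells up the side. Bars are standard errors derived from the test statistic of each comparison, and the dashed line marks equal changes. Setbp1 and Serpine2 lie low on both axes, and S100a4 and Gzma lie right of 0 and below it.

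Just inside the threshold stood Atf3, Gpr15, Serpina3g, 2410017I17Rik and Tsc22d3, with adjusted p-values of 0.0451 to 0.0458. Just outside stood Csk, the kinase that holds Src-family kinases inactive, at an adjusted p of 0.0507, followed by Gm7846, Itgb1, AA467197 and Nrp1, the neuropilin-1 gene. Csk stood at 109.5 and 115 CPM in WT against 79.5 and 74.1 CPM in labelled dKO (-0.55 ± 0.11), and Nrp1 at 79.9 and 71.6 CPM against 111 and 111 CPM (0.56 ± 0.11, adjusted p 0.0600). The groups of both did not overlap either.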

How the data were processed

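The authors deposited read counts by gene symbol in 1 table for the 8 libraries, and 0 of its columns lacked a sample. For PD1+Tim3- libraries the column names give PD1 only. Per the submitters' processing notes the build was mm10 and the tools cutadapt 1.18 and Bowtie2 2.2.5. The sources used here name no counter, annotation or strand setting. If Bowtie2 aligned to the genome, reads across exon junctions are missing.

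A last row without a name, equal to the column totals, was left out. Coordinates came from GENCODE vM21 and RefSeq (GRCm38) by symbol, with none for 1434 genes, 384 of them tested. Genes were filtered by filterByExpr, scaled by TMM and tested with the quasi-likelihood test of edgeR 4.0.16 in R 4.3.3, in 1 fit of 8 libraries and 4 group means. Of the 10 genes of chromosome Y that were tested, 4 had an adjusted p under 0.05 and were left out of the 78. P-values were adjusted over all 13073 tested genes by Benjamini-Hochberg. The standard errors are the absolute log2 fold change divided by the square root of the F statistic of the quasi-likelihood test. They restate that test and are no separate measure of precision. The levels per library in list medians used log2 with 0.5 CPM added. Alternatives used DESeq2 1.42.0, limma 3.58.1, other scalings, filters, samples and offsets. The scripts were tested on simulated counts.

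The 2 libraries of each group differed beyond sampling noise (chi-square per gene 3.10 to 16.1), and each was kept. The members and gene lists were chosen with earlier results of these data known. Genes named are the NR4A genes, called genes, list members and the 5 genes nearest the threshold on each side. Neighbours and overlapping genes were named for their position. 1 gene of the homing list is not reported here and was left out of that list and of the plots that name genes.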

Additional observations from a re-analysis of the deposited data

How the results depend on the processing

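The 78 genes called in PD1+Tim3+ cells became 35 in a fit of the 4 PD1+Tim3+ samples alone, of which 34 were among the 78, and 482 without the low-count filter, which held all 78. Leaving out each library in turn gave 4 to 409 calls. DESeq2 called 67, limma-voom 70, RLE and upper quartile scaling 74 and 80, robust empirical Bayes 117, and a minimum mean of 10 counts 73. With the replicate block it was 36, 16 higher and 20 lower, of which 32 were among the 78. Deviations of same-numbered libraries correlated between groups at -0.181 to 0.0231. Each group gives a single difference between replicates, so this cannot show whether same-numbered libraries share a mouse. The interaction between genotype and population, at 0 calls, was 95 by DESeq2 and 330 without the low-count filter, 0 with the replicate block, and 0 to 323 when each library was left out in turn. The causes were not tested. The 78 fold changes kept their sign wherever an alternative gave a value. There were 19 such alternatives for 75 genes and 18 for Gm5779, H2-Ob and LOC106557447. Gm5779 and H2-Ob had too few counts for the minimum mean of 10, and LOC106557447 had no DESeq2 adjusted p. Since the groups did not overlap in any of the 78, a change of sign was hardly possible. The kept signs are therefore no test of the calls. Depth limits weakly expressed genes, such as H2-Ob with 4 and 5 counts in labelled dKO.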
